A study of Lachancea kluyveri with 16 samples.

Results

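The strain by medium interaction asked whether an activated form of the transcription factor Sef1 shifted gene expression in *Lachancea kluyveri*, a budding yeast, differently between media labelled YPD and YPGly. For each gene it was the difference between SEF1-VP16 and WT where labelled YPGly minus the same difference where labelled YPD, on the log2 scale. All 16 of the 16 single-colour Agilent arrays entered it, in 4 groups of 4 cultures named by their titles, and it was tested for 5266 of 5316 genes with a probe. WT was strain JYL1897, and SEF1-VP16 was 1 strain, SkSef1VP16NB10-1, in which Sef1 is fused to the strong activation domain of VP16, a viral protein. The strain list of the study gives JYL1897, from which the mutants were made, as MATa ura3. Cultures of both strains were kept overnight in YPD, a rich glucose medium, at 28 °C, then diluted to an optical density of 0.2 into YPD or YPGly, which holds glycerol in place of glucose, and harvested after 5.5 h at 30 °C. Each array held the cDNA of 1 culture, so arrays are biological repeats by their labels, all from those strains. Since RNA was measured per culture, fewer expressing cells and less RNA per cell cannot be told apart.

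Sef1 is a zinc cluster protein that binds promoters and activates transcription. In *Candida albicans* it is known for switching on iron uptake genes, and in *L. kluyveri* the study examined it as a regulator of the TCA cycle, the mitochondrial pathway that oxidises acetyl units during respiration. In yeasts that use the factor Aft1, low iron switches on surface ferric reductases, which reduce iron, and a multicopper oxidase with its permease, which carry iron into the cell; copper is needed by the oxidase. Glucose represses genes for other carbon sources, while glycerol is used through respiration. Gene symbols follow the orthologs in *Saccharomyces cerevisiae* listed by the study, and the roles stated are known from that species unless another is named. Some symbols belong to more than 1 locus, so locus tags are given.

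The share of gene probes well above background lay between 94.5% and 99.95% per array, none was saturated, and the number of arrays limits the precision. Arrays labelled YPD were more variable. The median SD of a gene over 4 arrays labelled YPD was 0.22 for WT and 0.16 for SEF1-VP16, against 0.12 and 0.11 where labelled YPGly. Slide 1 held every array labelled YPD and slide 2 every array labelled YPGly, with WT in array row 1 and SEF1-VP16 in array row 2 of each slide. A shift of a whole slide or of a whole row cancels in the interaction, but an effect of row that differed between slides cannot be told apart from it. The medium labels went against the markers of non-fermentable carbon use. Of 13 loci tested for non-fermentable carbon use, named JEN1, ICL1, MLS1, PCK1, FBP1, ADY2, ACS1, SFC1, GUT1, GUT2 or STL1, 12 were lower on WT arrays labelled YPGly than on those labelled YPD, 11 of them past the threshold, and 1, a locus named JEN1 (SAKL0D04510g), was higher by 2.63. Their median difference was −2.86, and the mean over these markers was 1.61 to 2.04 on the WT arrays labelled YPD and −1.96 to −1.64 on those labelled YPGly. Of the 3 loci named HXT2 or RGT2, for glucose uptake and sensing, the 2 named RGT2 were lower where labelled YPGly, which is the direction of the labels. The other, HXT2, was higher there by 0.58 and not called. The 13 tested genes of glucose sensing and hexose transport, which include these 3, had a median difference of −0.08 in WT. The list as a whole thus gave no clear direction. The study's own listing of strain ratios was compared for UGA4, SAKL0B05940g, AFT1 and MIC17. For these it has the media the other way round from the titles of these arrays. If that holds for all genes, the interactions given here have the opposite direction to what the study's ratios give. Media are named as labelled throughout. With the labels exchanged, every sign would turn, the positive and negative calls would trade places and so would all values given by medium, while sizes, tests and the total count would stay.

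The transcript of SEF1 (SAKL0F12342g) itself stood lower in SEF1-VP16 by a like amount in both media. Its log2 level, normalised to the 75th percentile of each array, was −2.05, −1.86, −1.80 and −1.71 in WT where labelled YPD, and −2.31, −2.41, −2.17 and −2.09 in SEF1-VP16. On arrays labelled YPGly it was −1.99, −1.77, −1.65 and −1.64 in WT and −2.04, −2.20, −2.16 and −2.08 in SEF1-VP16. All SEF1-VP16 arrays lay below all WT arrays of the same label, with strain effects of −0.39 (SE 0.10) and −0.36 (SE 0.10) that were under the fold threshold, and the interaction was 0.03 (SE 0.14, adjusted p 0.948) in limma.

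Of the 5266 genes tested, 60 were called for the interaction at an adjusted p of 0.05 or less and a size of at least 1.5-fold, which is 1.14% of the genes. A positive interaction, meaning that SEF1-VP16 stood higher relative to WT where labelled YPGly, was called for 34 genes (0.646%), and a negative one for 26 (0.494%). Over all genes tested the median interaction was −0.02, the SD 0.30, and 46.9% of genes were above 0. The called genes with a positive interaction ranged from 0.59 to 1.49 with a median of 0.82. The negative ones were larger, ranging from −1.93 to −0.62 with a median of −1.02. A size of at least 1 was reached by 20 called genes and by 28 uncalled genes. The largest uncalled estimates, for SAKL0G07700g and SAKL0G09372g, came from probes that were well above background on 0 or 1 of 4 arrays of each strain where labelled YPGly, so they are not measured ratios.

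The called genes took several shapes. SEF1-VP16 differed from WT past the same thresholds only where labelled YPGly for 21 of them and only where labelled YPD for 15. The strain effect was called in both media and in the same direction for 4 genes, MDH1, NFU1, UGA4 and SAKL0B05940g, all higher in SEF1-VP16 in both and more so where labelled YPD. It was called in opposite directions for 1 gene, BIO3. For the remaining 19 genes neither strain effect passed on its own. In all 19 the strain effect was under the fold threshold in each medium. An interaction past that threshold then requires estimates of opposite sign, so their opposite signs are fixed by the call rule. Estimates of opposite sign were found for 41 of the 60 called genes. The 19 genes enter that count and the counts by direction that follow, which are thus in part fixed by the call rule. Among the 34 with a positive interaction, the strain effect where labelled YPD was below 0 for 29 and the one where labelled YPGly above 0 for 32. Among the 26 with a negative interaction, the effect where labelled YPD was above 0 for 23 and the one where labelled YPGly below 0 for 17. The plot of strain effects shows these shapes around the diagonal.

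**Figure D1:**
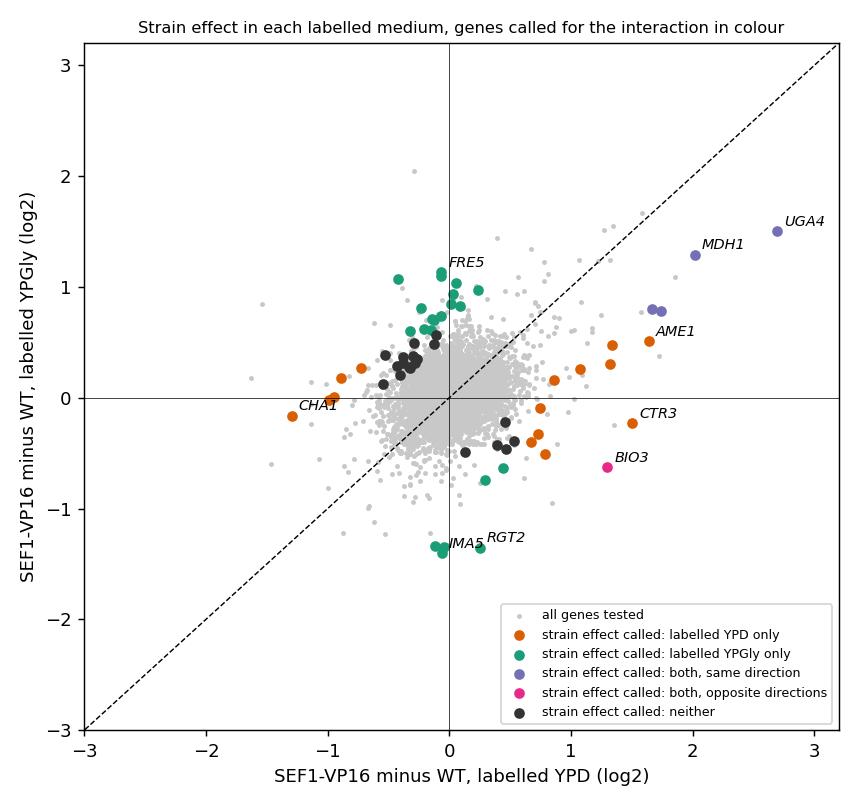
Strain effect, SEF1-VP16 minus WT on the log2 scale, where labelled YPD (x axis) and where labelled YPGly (y axis), for the 5266 genes tested (grey) and the 60 genes called for the interaction (coloured by the media in which the strain effect itself was called). The dashed line marks equal effects; genes above it have a positive interaction, such as FRE5 at 1.20, and genes below it a negative one, such as BIO3 at −1.93.

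A call in only 1 medium was mostly not a called difference between media. The strain effect was called for 111 genes (2.11%) where labelled YPD and for 121 genes (2.3%) where labelled YPGly, and 35 genes were called in both. Of the 162 genes called in exactly 1 medium, 36 (22.2%) were called for the interaction, and of the 34 called in both in the same direction, 4 (11.8%) were. The 78 genes called higher where labelled YPD had a median strain effect of 0.80 there and of 0.48 where labelled YPGly, and 68 of them were above 0 there too. The 85 genes called higher where labelled YPGly had a median of 0.77 there and 0.23 where labelled YPD, and 66 of them were above 0 there. Each set was chosen for its effect in the first medium, so a smaller value in the other is fixed in part by the choice. Across all genes tested, the strain effects of the media correlated at r = 0.33, a description across genes, which are not independent replicates.

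The iron and copper uptake list held 5 of the 34 genes with a called positive interaction. Besides uptake genes it includes the iron regulator AFT1 and CTH1, which encodes an mRNA-binding protein. The list had 29 loci by name, and 28 were tested. Of these, 5 were called with a positive interaction and 1 with a negative one, against 0.646% and 0.494% of all genes. The median of the 28 was 0.27, beside −0.02 for all genes, and 21 of 28 were above 0, beside 46.9% of all genes. SEF1-VP16 was higher than WT past the threshold for 4 of the 28 where labelled YPD and for 10 where labelled YPGly, beside 1.48% and 1.61% of all genes. The 5 genes were FRE5, FRE4, FTR1, CCC2 and CTH1, and each had a called strain effect only where labelled YPGly. With 1 array left out, 3 to 7 of the list were called positive and CTR3 stayed the 1 called negative. The count was 3 without WT YPD replicate 2, without WT YPGly replicate 2, 3 or 4, without SEF1-VP16 YPD replicate 1 or 3, and without any of the 4 SEF1-VP16 YPGly arrays. FRE5, FTR1 and CCC2 were called in all 16 of these fits, FRE4 in 5 and CTH1 in 3.

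FRE5 (SAKL0F14740g), named after a putative ferric reductase, had the largest positive interaction of the list. Its level where labelled YPD was −3.02, −3.29, −3.58 and −2.79 in WT and −3.17, −3.28, −3.18 and −3.31 in SEF1-VP16, so the groups overlapped. Where labelled YPGly it was −1.87, −1.85, −1.79 and −1.79 in WT and −0.77, −0.80, −0.79 and −0.40 in SEF1-VP16, with every SEF1-VP16 array above every WT array. The strain effect was −0.07 (SE 0.14) and 1.14 (SE 0.14) in that order, and the interaction was 1.20 (SE 0.19, adjusted p 0.00511), a 2.3-fold change of the strain ratio. The neighbouring locus FRE4 (SAKL0F14718g), also a ferric reductase by its name, behaved alike. WT arrays were at 1.59, 1.19, 0.52 and 0.95 and SEF1-VP16 arrays at 1.09, 1.26, 0.79 and 0.85 where labelled YPD. Where labelled YPGly they were at 1.04, 0.64, 0.71 and 0.45 in WT and 1.84, 1.92, 1.66 and 1.83 in SEF1-VP16. The groups again overlapped only in the first medium, and the interaction was 1.17 (SE 0.26, adjusted p 0.0363). FRE4 and FRE5 lie in a run of 4 consecutive tags with FRE3 (SAKL0F14762g) and FRE2 (SAKL0F14784g). FRE2 had an interaction of 0.94 (SE 0.24, adjusted p 0.068) and was not called, and FRE3 had −0.09 (SE 0.18, adjusted p 0.872). The genes of the run resemble each other in name, and signal shared between related sequences was not tested.

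FTR1 (SAKL0H18920g), the high-affinity iron permease, was at 1.30, 1.20, 0.78 and 1.33 in WT and 1.09, 1.22, 1.01 and 1.51 in SEF1-VP16 where labelled YPD. On arrays labelled YPGly it was at 1.44, 1.34, 1.46 and 1.35 in WT and 2.39, 2.41, 2.35 and 2.59 in SEF1-VP16. The groups were mixed in the first medium and separate in the second, with an interaction of 0.98 (SE 0.18, adjusted p 0.00988). FET3 (SAKL0B12056g), the multicopper oxidase that works with Ftr1, was called higher in both media, by 0.67 (SE 0.11) and 1.34 (SE 0.11), and its interaction of 0.66 (SE 0.16, adjusted p 0.0537) missed the threshold. CCC2 (SAKL0G01650g), the pump that hands copper to that oxidase, had levels of −1.502, −1.14, −1.36 and −0.9996 in WT and −1.51, −1.54, −1.64 and −1.61 in SEF1-VP16 where labelled YPD. In arrays labelled YPGly they were −2.41, −2.38, −2.12 and −2.08 in WT and −1.83, −1.62, −1.66 and −1.48 in SEF1-VP16. SEF1-VP16 thus lay below WT on every array of the first medium and above WT on every array of the other, and the interaction was 0.92 (SE 0.16, adjusted p 0.00988). A second locus named CCC2 (SAKL0H20108g) had 0.33 (SE 0.17, adjusted p 0.384) and was not called. CTH1 (SAKL0H15334g), an mRNA-binding zinc finger protein, overlapped where labelled YPD, with strain means of −2.73 ± 0.32 in WT and −2.71 ± 0.17 in SEF1-VP16 (SD, n = 4). Where labelled YPGly the means were −2.18 ± 0.14 and −1.34 ± 0.13 (SD, n = 4), and the interaction was 0.83 (SE 0.20, adjusted p 0.0492), close to the threshold.

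Other members were not called. The siderophore transporter SIT1 (SAKL0C12122g) and the iron regulator AFT1 (SAKL0A04532g) were called higher in SEF1-VP16 in both media, and their interactions were 0.44 (SE 0.11, adjusted p 0.0585) and 0.15 (SE 0.17, adjusted p 0.746). The lowest of the uncalled members was a locus named FRE1 (SAKL0C02992g) at −0.19 (SE 0.14, adjusted p 0.596), and the copper transporter CTR1 (SAKL0F03784g) was at 0.08 (SE 0.13, adjusted p 0.855). Of the 114 genes that the study listed as induced by low iron in other samples, which include the uptake genes, 111 were tested. Of these, 5 were called positive and 2 negative, beside 0.646% and 0.494% of all genes, and the median was 0.04.

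CTR3 (SAKL0G16038g), a high-affinity copper transporter, had the opposite sign to the 5 other called genes of its list and had the smallest p of all genes. Where labelled YPD it was at −0.80, −1.07, −1.02 and −1.13 in WT and 0.61, 0.48, 0.49 and 0.42 in SEF1-VP16. In the medium labelled YPGly it was at 0.98, 0.79, 0.85 and 0.84 in WT and 0.64, 0.55, 0.73 and 0.63 in SEF1-VP16. The SEF1-VP16 arrays were far above WT in the first medium and slightly below in the second, without overlap in either. The strain effect was 1.503 (SE 0.08) against −0.23 (SE 0.08), and the interaction was −1.73 (SE 0.12, adjusted p 6.06e-07), a 3.32-fold change of the ratio. In WT the gene was higher where labelled YPGly by 1.87 (SE 0.08). The second CTR3 probe gave an interaction of −1.499.

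BIO3 (SAKL0H11528g), which makes a precursor of the vitamin biotin, had the largest interaction of all called genes. Its levels where labelled YPD were −1.76, −1.83, −1.90 and −1.91 in WT and −0.31, −0.50, −0.32 and −1.08 in SEF1-VP16. Where labelled YPGly they were −2.34, −2.56, −2.32 and −2.37 in WT and −3.13, −2.89, −3.005 and −3.07 in SEF1-VP16. All SEF1-VP16 arrays were above WT in the first medium and all below WT in the other. The strain effects, 1.30 (SE 0.13, adjusted p 1.66e-05) and −0.63 (SE 0.13, adjusted p 0.0109), were both called, and the interaction was −1.93 (SE 0.19, adjusted p 6.48e-05), or 3.8-fold. The neighbouring BIO4 (SAKL0H11506g), of the next step of the pathway, had −0.84 (SE 0.22, adjusted p 0.0807) and was not called, and neither were the other 3 of the 5 biotin genes. The median of the 5 was −0.47. A further locus named BIO3 (SAKL0H09504g) had −0.47 (SE 0.43, adjusted p 0.688).

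**Figure D2:**
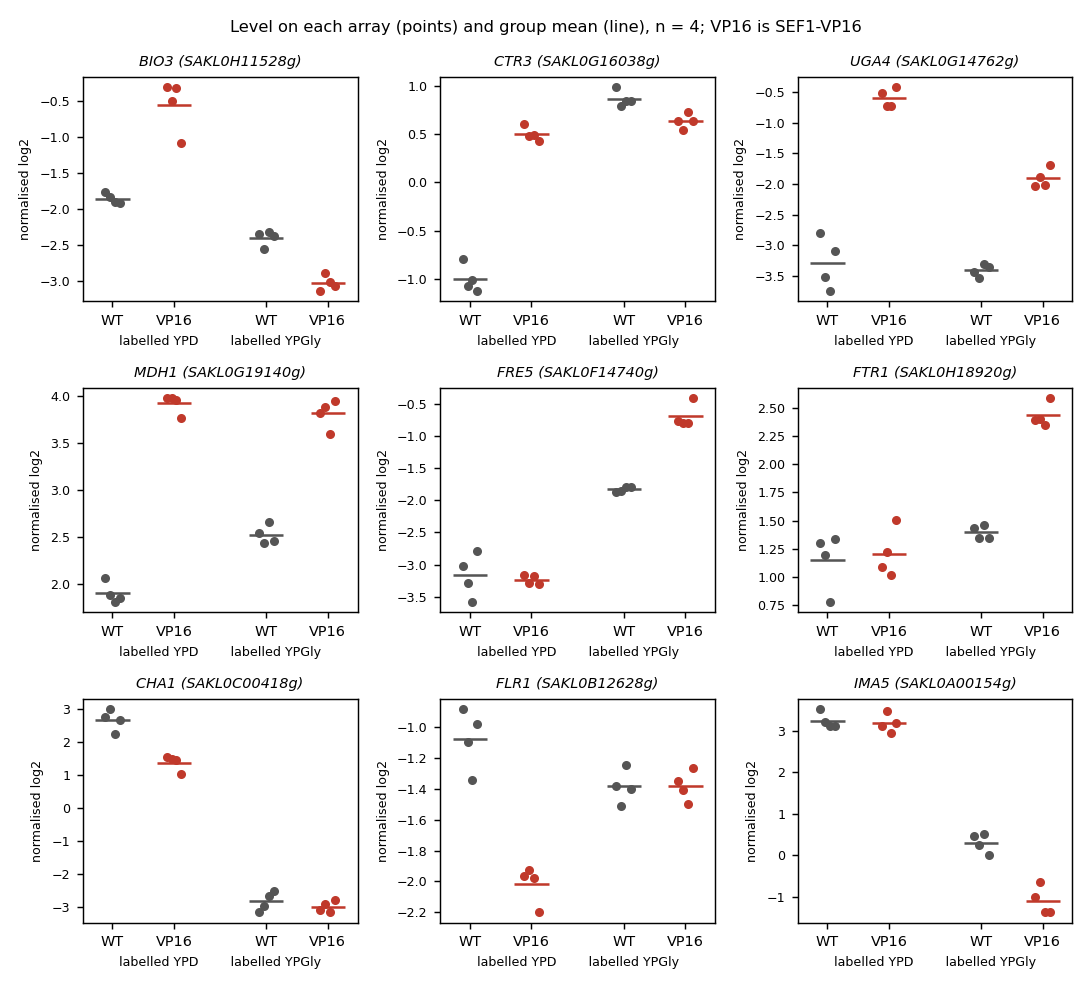
Normalised log2 level of 9 genes on each of the 16 arrays (points) with the mean of each group of 4 (lines); the y axis differs between panels. BIO3 and CTR3 are higher in SEF1-VP16 where labelled YPD and lie below WT where labelled YPGly, FRE5, FTR1 and IMA5 separate the strains only where labelled YPGly, and CHA1 and FLR1 only where labelled YPD.

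All 21 TCA cycle genes were tested. SEF1-VP16 was called higher for 10 where labelled YPD and for 13 where labelled YPGly, beside 1.48% and 1.61% of all genes. For the interaction 1 of the 21 was called, beside 1.14% of all genes. Their median interaction was 0.11 beside −0.02 for all genes, with 17 of 21 above 0, beside 46.9%. That 1 gene, MDH1 (SAKL0G19140g), the mitochondrial malate dehydrogenase, had a negative interaction, opposite in sign to most of its list. Its levels were 2.06, 1.89, 1.81 and 1.85 in WT and 3.98, 3.98, 3.96 and 3.77 in SEF1-VP16 where labelled YPD. They were 2.54, 2.44, 2.66 and 2.46 in WT and 3.83, 3.89, 3.60 and 3.95 in SEF1-VP16 where labelled YPGly. The strains did not overlap in either medium, and WT was higher where labelled YPGly by 0.62 (SE 0.09) while SEF1-VP16 was at −0.11 for the same contrast. The strain effect was 2.02 (SE 0.09) and 1.29 (SE 0.09), and the interaction was −0.73 (SE 0.13, adjusted p 0.0106). The other malate dehydrogenases, MDH2 (SAKL0C12760g) and MDH3 (SAKL0E04928g), had interactions of 0.05 (SE 0.18) and 0.06 (SE 0.11). IDP3 (SAKL0D08426g), a peroxisomal isocitrate dehydrogenase, and SDH2 (SAKL0H25850g), the iron-sulphur subunit of succinate dehydrogenase, had the largest positive values of the list, 0.52 (SE 0.24, adjusted p 0.338) and 0.38 (SE 0.17, adjusted p 0.296), and were not called. KGD1 (SAKL0E08866g), of the 2-oxoglutarate dehydrogenase, and IDH1 (SAKL0E07876g), of the NAD-dependent isocitrate dehydrogenase, were called higher in both media with interactions of 0.01 (SE 0.15) and −0.07 (SE 0.23).

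Of 10 genes tested that build iron-sulphur clusters 1 was called, with a negative interaction, beside 0.494% of all genes. Their median was −0.19, and 3 were above 0, beside 46.9% of all genes. The called gene, NFU1 (SAKL0D13046g), whose protein passes clusters to mitochondrial enzymes, was at −0.32, 0.12, 0.31 and −0.33 in WT and 1.43, 1.67, 1.63 and 1.71 in SEF1-VP16 where labelled YPD. Its levels where labelled YPGly were −0.41, −0.15, −0.44 and −0.32 in WT and 0.42, 0.39, 0.62 and 0.46 in SEF1-VP16. SEF1-VP16 was above WT on all arrays of both media, by less in the second, and the interaction was −0.86 (SE 0.18, adjusted p 0.029). NFU1 was called in 6 of the 16 fits with 1 array left out. SSQ1 (SAKL0H04004g), the chaperone of cluster assembly, had −0.69 (SE 0.20, adjusted p 0.115). The 3 assembly factors of succinate dehydrogenase had a median of −0.30 and all were below 0, none of them called, with SDH5 (SAKL0C08426g) at −0.58 (SE 0.24, adjusted p 0.284). None of the 21 genes of the respiratory chain and ATP synthase was called, and their median was 0.14.

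Genes of nitrogen use were called in both directions. Of 23 genes of GABA and amino acid breakdown, 2 were called positive and 2 negative, beside 0.646% and 0.494% of all genes. Their median was −0.03. UGA4 (SAKL0G14762g), a permease for GABA, was at −2.81, −3.52, −3.75 and −3.10 in WT and −0.51, −0.73, −0.72 and −0.42 in SEF1-VP16 where labelled YPD. Where labelled YPGly it was at −3.44, −3.54, −3.30 and −3.35 in WT and −2.03, −1.88, −2.01 and −1.69 in SEF1-VP16. It was far higher in SEF1-VP16 on all arrays of both media, by 2.70 (SE 0.16) and 1.504 (SE 0.16), and the interaction was −1.19 (SE 0.23, adjusted p 0.0163). A second locus named UGA4 (SAKL0G15136g) had −0.41 (SE 0.14, adjusted p 0.165). CAR1 (SAKL0E11880g), arginase, was higher by 0.86 (SE 0.09) where labelled YPD and by 0.16 (SE 0.09) where labelled YPGly, with an interaction of −0.70 (SE 0.12, adjusted p 0.00988).

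CHA1 (SAKL0C00418g), the deaminase that breaks down serine and threonine, fell in SEF1-VP16 only where labelled YPD. There it was at 2.76, 2.9997, 2.24 and 2.67 in WT and 1.53, 1.48, 1.46 and 1.01 in SEF1-VP16. On arrays labelled YPGly it was at −3.17, −2.99, −2.67 and −2.51 in WT and −3.10, −2.92, −3.15 and −2.81 in SEF1-VP16. The strains were separate in the first medium and mixed in the second, in which the gene was far lower in WT, with a difference of −5.501 (SE 0.17). The interaction was 1.14 (SE 0.24, adjusted p 0.0281), called in 10 of the 16 fits with 1 array left out. The adjacent tag SAKL0C00396g, which has no name here, was called too, at 0.92 (SE 0.21, adjusted p 0.0373). That call held in 5 of the 16 fits and was lost with normexp background correction. CHA4 (SAKL0H16544g), the activator of CHA1, had 0.55 (SE 0.15, adjusted p 0.0868) and was not called. ARO10 (SAKL0G03036g), a decarboxylase of aromatic amino acid breakdown, had no called strain effect, −0.38 (SE 0.12) and 0.37 (SE 0.12), but a called interaction of 0.75 (SE 0.16, adjusted p 0.0329). SRY1 (SAKL0A10626g), a dehydratase of hydroxyaspartate, was lower in SEF1-VP16 on every array labelled YPD and overlapped in the other medium, with 0.67 (SE 0.12, adjusted p 0.00988). ILV2 (SAKL0E03740g), acetolactate synthase of branched-chain amino acid synthesis, lay below WT on every SEF1-VP16 array labelled YPD and above it on every array labelled YPGly, with 0.61 (SE 0.10, adjusted p 0.00817). Of 17 amino acid permeases 1 was called, the low-affinity permease AGP3 (SAKL0B04554g) at 0.998 (SE 0.21, adjusted p 0.026), beside 0.646% of all genes. Of the 17, 14 were above 0, beside 46.9% of all genes, with a median of 0.15. AGP3 was dim, with group means of −4.04 ± 0.35 in WT and −4.77 ± 0.24 in SEF1-VP16 (SD, n = 4) where labelled YPD, and its second probe gave 0.24.

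Of the 5 isomaltase loci, 4 were called lower in SEF1-VP16 where labelled YPGly, and none was called where labelled YPD. These enzymes split isomaltose and related sugars into glucose. All 6 maltose and isomaltose genes were tested, and 4 were called, all negative, beside 0.494% of all genes. The median was −1.13 with all 6 below 0, while 46.9% of all genes were above 0. With 1 array left out 3 or 4 were called, SAKL0C02112g in 3 of the 16 fits and the other 3 genes in all. IMA5 (SAKL0A00154g) was at 3.53, 3.21, 3.11 and 3.11 in WT and 3.11, 3.49, 2.95 and 3.18 in SEF1-VP16 where labelled YPD. In the medium labelled YPGly it was at 0.47, 0.24, 0.53 and 0.0039 in WT and −0.99, −0.65, −1.36 and −1.37 in SEF1-VP16. The groups overlapped in the first medium and every SEF1-VP16 array was lower in the second, with −1.34 (SE 0.24, adjusted p 0.00988). A second IMA5 locus (SAKL0C00176g) gave −1.22 (SE 0.18, adjusted p 0.00375), and IMA1 loci gave −1.30 (SE 0.30, adjusted p 0.0427) for SAKL0C02112g and −1.03 (SE 0.18, adjusted p 0.0092) for SAKL0A05698g. The third IMA1 locus, SAKL0A05654g, had −0.35 (SE 0.19, adjusted p 0.43), and the maltose permease gene MAL11 (SAKL0A05676g) had −0.69 (SE 0.28, adjusted p 0.262). In both, every SEF1-VP16 array labelled YPGly also lay below every WT array of that label. SAKL0A05654g, MAL11 and SAKL0A05698g are consecutive in tag order. The array design marks the probes used for SAKL0C00176g and SAKL0C02112g as cross-hybridising, the only 2 such probes among the called genes. How far similar isomaltase loci share signal was not tested, and they are not counted as separate evidence. In WT all 6 were lower where labelled YPGly, with a median of −2.85.

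RGT2 (SAKL0B00264g), named after a glucose sensor of the cell surface, was at 0.24, −0.56, 0.02 and 0.32 in WT and 0.03, 0.31, −0.05 and 0.71 in SEF1-VP16 where labelled YPD. Its levels where labelled YPGly were −6.26, −5.74, −5.64 and −5.88 in WT and −7.05, −6.75, −7.73 and −7.41 in SEF1-VP16, where 2 of 4 arrays were well above background. The strains overlapped in the first medium and were separate, near the background, in the second, with an interaction of −1.60 (SE 0.33, adjusted p 0.0253). The interaction was −0.26 with normexp background correction and −1.07 with the second probe, and was called with neither. A second locus named RGT2 (SAKL0D10450g) had −0.70 (SE 0.27, adjusted p 0.234). Of 13 genes of glucose sensing and hexose transport 1 was called, negative, beside 0.494% of all genes, and the median was −0.14. The glucose transporter gene HXT2 (SAKL0G19844g) had 1.14 (SE 0.52, adjusted p 0.324), its arrays labelled YPD being widely spread. None of 31 genes of gluconeogenesis, the glyoxylate cycle and acetyl use was called, although their median was 0.25 and 20 were above 0, beside 46.9% of all genes. The nearest to the threshold were ALD6 (SAKL0H10252g), an aldehyde dehydrogenase, at 0.83 (SE 0.20, adjusted p 0.0542), and PCK1 (SAKL0E15048g), the gluconeogenic carboxykinase, at 0.77 (SE 0.20, adjusted p 0.0683). Of the 8 glycerol genes none was called either, and the median was −0.01.

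**Figure D3:**
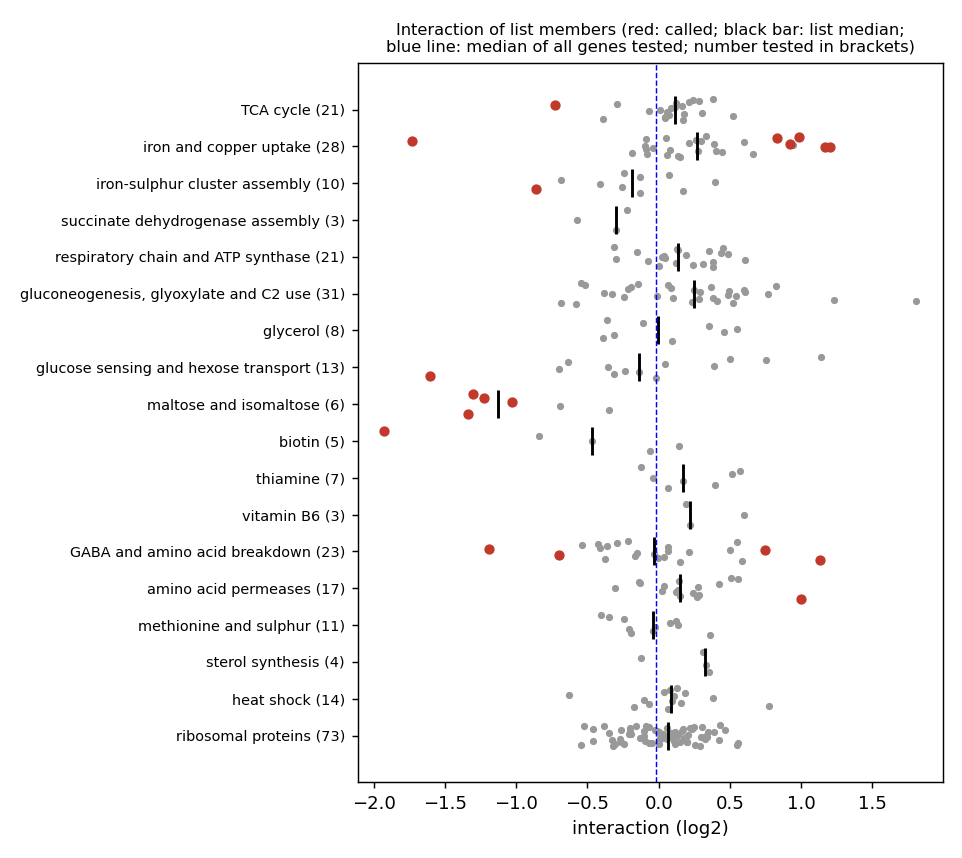
Interaction (x axis, log2) of every tested member of 18 gene lists (rows, number tested in brackets), with called members in red, the median of each list as a black bar and the median of all genes tested, −0.02, as a blue dashed line. Called members of iron and copper uptake lie to the right except CTR3, and those of maltose and isomaltose all lie to the left.

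ESBP6 (SAKL0C09614g), similar to monocarboxylate carriers, was lower in SEF1-VP16 where labelled YPD. It was at −0.56, −0.56, −0.84 and −0.53 in WT and −1.52, −1.48, −1.38 and −1.68 in SEF1-VP16 in that medium. Where labelled YPGly it was at −2.81, −2.94, −3.08 and −2.80 in WT and −2.78, −2.83, −2.92 and −2.37 in SEF1-VP16. The strains were separate in the first medium and mixed in the second, with 1.07 (SE 0.17, adjusted p 0.00444). MCH4 (SAKL0B12738g), of the same kind, had a strain effect of −0.98 (SE 0.14) where labelled YPD and of −0.01 where labelled YPGly, and had an interaction of 0.97 (SE 0.20, adjusted p 0.026). FLR1 (SAKL0B12628g), a drug exporter, was at −0.88, −1.09, −1.34 and −0.98 in WT and −1.97, −1.92, −1.98 and −2.20 in SEF1-VP16 where labelled YPD. On arrays labelled YPGly it was at −1.38, −1.51, −1.25 and −1.40 in WT and −1.35, −1.41, −1.496 and −1.26 in SEF1-VP16. Every SEF1-VP16 array was lower in the first medium, the strains were mixed in the second, and the interaction was 0.95 (SE 0.15, adjusted p 0.00393). ENA2 (SAKL0H13222g), a sodium pump, was lower in SEF1-VP16 on every array labelled YPD and overlapped where labelled YPGly, with 0.72 (SE 0.16, adjusted p 0.0377) and no called strain effect. ENA2 was called in 4 of the 16 fits with 1 array left out.

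Other positive interactions came with a rise in SEF1-VP16 that was called only where labelled YPGly. The uncalled strain effect where labelled YPD also entered them, such as −0.42 (SE 0.23) for YHR022C and −0.23 (SE 0.11) for PRX1. The locus named YHR022C (SAKL0G11154g) had the largest positive value of all called genes. It was at −2.24, −2.37, −2.02 and −2.44 in WT and −3.34, −2.29, −2.97 and −2.14 in SEF1-VP16 where labelled YPD. In the medium labelled YPGly it was at −5.77, −5.64, −5.90 and −5.57 in WT and −4.76, −5.15, −4.45 and −4.24 in SEF1-VP16. The strains were mixed in the first medium, in which SEF1-VP16 spread widely, and separate in the second, with 1.49 (SE 0.33, adjusted p 0.0329). It was called in 7 of the 16 fits with 1 array left out, and neither with normexp nor with the ordinary variance. PRX1 (SAKL0B04686g), a mitochondrial peroxiredoxin that removes peroxides, was at −1.81, −1.80, −1.55 and −1.94 in WT and −1.999, −1.89, −2.13 and −2.003 in SEF1-VP16 where labelled YPD. Its levels where labelled YPGly were −5.11, −4.76, −5.10 and −4.88 in WT and −4.25, −4.33, −4.13 and −3.92 in SEF1-VP16, all SEF1-VP16 arrays being higher. Its interaction was 1.04 (SE 0.16, adjusted p 0.00393). MIC17 (SAKL0E01650g), a protein of the mitochondrial intermembrane space, was higher by 0.98 (SE 0.10) where labelled YPGly against 0.24 (SE 0.10), with 0.74 (SE 0.14, adjusted p 0.0166). IMO32 (SAKL0H09020g), a mitochondrial protein, and RDL2 (SAKL0H04884g) had 0.86 (SE 0.14, adjusted p 0.00714) and 0.74 (SE 0.17, adjusted p 0.0432). FES1 (SAKL0B07392g), an exchange factor of heat shock chaperones, had 0.91 (SE 0.21, adjusted p 0.0403). ERT1 (SAKL0A06116g), a transcription factor of ethanol use, had 0.83 (SE 0.20, adjusted p 0.0492). With 1 array left out, PRX1 and IMO32 were called in all 16 fits and MIC17 in 15, but FES1 and ERT1 in 4 and RDL2 in 2. FES1 was also not called under 5 other settings and ERT1 under 4. With their second probes PRX1, IMO32 and MIC17 had 0.51, 0.54 and 0.65 and were not called.

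DIM1 (SAKL0E00660g), which methylates ribosomal RNA, was at −0.53, −0.44, −0.56 and −0.70 in WT and −0.87, −0.72, −0.73 and −0.72 in SEF1-VP16 where labelled YPD. Where labelled YPGly it was at −1.34, −1.26, −1.42 and −1.18 in WT and −0.82, −0.73, −0.63 and −0.53 in SEF1-VP16. SEF1-VP16 was below WT on all arrays of the first medium and above it on all of the second, with 0.83 (SE 0.12, adjusted p 0.00372). The helicases DBP8 (SAKL0H02178g) and DBP6 (SAKL0A00924g) and the locus named YDL063C (SAKL0H03080g) had 0.81 (SE 0.18, adjusted p 0.0373), 0.76 (SE 0.15, adjusted p 0.0238) and 0.68 (SE 0.16, adjusted p 0.0492). With 1 array left out, DIM1 was called in all 16 fits, DBP6 in 10, DBP8 in 6 and YDL063C in 3. None of 73 ribosomal protein genes tested was called, and their median was 0.06. ZTA1 (SAKL0D03872g), a quinone reductase, and MRI1 (SAKL0F06622g), of methionine salvage, had 0.61 (SE 0.13, adjusted p 0.0281) and 0.59 (SE 0.13, adjusted p 0.029) with no called strain effect. The second ZTA1 probe gave 0.05.

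Negative interactions outside the functional lists included AME1, SAKL0B05940g, TRS85, EAT1, LEU5 and SRL4, all called higher in SEF1-VP16 where labelled YPD. AME1 (SAKL0A07392g), of the kinetochore, was at −2.99, −2.65, −2.63 and −2.83 in WT and −1.25, −1.08, −0.97 and −1.23 in SEF1-VP16 where labelled YPD. On arrays labelled YPGly it was at −2.93, −2.86, −3.09 and −3.04 in WT and −2.41, −2.53, −2.31 and −2.62 in SEF1-VP16. SEF1-VP16 was higher on all arrays of both media, by 1.64 (SE 0.10) and 0.51 (SE 0.10), and the interaction was −1.13 (SE 0.14, adjusted p 0.000928). SAKL0B05940g, which has no name here and whose promoter the study used in reporter assays, was at −1.13, −0.63, −0.95 and −1.33 in WT and 0.68, 0.73, 0.87 and 0.64 in SEF1-VP16 where labelled YPD. In the medium labelled YPGly it was at −1.78, −1.83, −2.11 and −2.09 in WT and −1.14, −1.23, −1.09 and −1.24 in SEF1-VP16. Its strain effect was 1.74 (SE 0.13) and 0.78 (SE 0.13), called in both, and the interaction was −0.96 (SE 0.18, adjusted p 0.0129). TRS85 (SAKL0H17226g), of a vesicle tethering complex, had −0.82 (SE 0.13, adjusted p 0.00393), and EAT1 (SAKL0H23210g), an ethanol acetyltransferase, had −0.87 (SE 0.19, adjusted p 0.0295); in both genes the strains were separate in both media. LEU5 (SAKL0A09306g), a mitochondrial carrier needed for coenzyme A, had −1.02 (SE 0.24, adjusted p 0.0432), but was called in only 1 of the 16 fits with 1 array left out. SRL4 (SAKL0E05500g) had −0.83 (SE 0.14, adjusted p 0.00817) and overlapped where labelled YPGly.

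In a few genes the strains were separate in both media and in opposite directions. Of all genes tested 29 (0.551%) had no overlap in opposite directions, and 18 of these were among the 60 called. The 60 were chosen on these same arrays, so such separation among them is in part fixed by the choice. FIG2 (SAKL0A00572g), a cell wall adhesin of mating, was at −2.01, −1.93, −2.09 and −1.92 in WT and −1.48, −1.71, −1.57 and −1.34 in SEF1-VP16 where labelled YPD. Its levels where labelled YPGly were −0.89, −0.89, −0.79 and −0.97 in WT and −1.20, −1.25, −1.38 and −1.53 in SEF1-VP16. SEF1-VP16 was the higher strain in the first medium and the lower in the second, and the interaction was −0.92 (SE 0.13, adjusted p 0.0034), although neither strain effect was called. The unnamed loci SAKL0A10538g and SAKL0E04807g had −1.06 (SE 0.12, adjusted p 0.000461) and −1.29 (SE 0.23, adjusted p 0.0106), with the same directions. CRG1 (SAKL0H24178g), named after a methyltransferase, had −1.08 (SE 0.25, adjusted p 0.0391) at levels near the background in WT labelled YPD, where 3 of 4 arrays were well above it. GAL10 (SAKL0C11550g), of galactose use, had −0.62 (SE 0.14, adjusted p 0.0325) and overlapped where labelled YPD. The locus named YPL272C (SAKL0E00792g) had −1.08 (SE 0.22, adjusted p 0.026), but where labelled YPD its probe was well above background on 2 of 4 arrays of WT and on 0 of 4 of SEF1-VP16, so its strain effect there is not a measured ratio.

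The remaining called loci have no name here. Positive interactions of the other 6 unnamed loci were 0.79 (SE 0.16, adjusted p 0.026) for SAKL0H17424g, 0.69 (SE 0.15, adjusted p 0.0369) for SAKL0H08074g and 0.68 (SE 0.14, adjusted p 0.0253) for SAKL0F06160g. SAKL0G18348g was at 0.62 (SE 0.14, adjusted p 0.0377), SAKL0C09328g at 0.61 (SE 0.13, adjusted p 0.0295) and SAKL0G18458g at 0.59 (SE 0.12, adjusted p 0.0273). All 6 had no called strain effect, with estimates below 0 where labelled YPD and above 0 where labelled YPGly. As their strain effects were under the fold threshold in each medium, these signs are fixed by the call. With 1 array left out, SAKL0F06160g was called in 12 of the 16 fits, SAKL0H17424g in 10, SAKL0G18458g in 7 and SAKL0C09328g in 6. SAKL0H08074g and SAKL0G18348g were called in 4 each. The second SAKL0G18348g probe gave 0.19. SAKL0H26180g, SAKL0D13112g and SAKL0B05522g had negative interactions of −0.92 (SE 0.19, adjusted p 0.0281), −0.82 (SE 0.16, adjusted p 0.022) and −0.67 (SE 0.14, adjusted p 0.0254), likewise with no called strain effect. These 3 genes were called in 9, 13 and 10 of the 16 fits in that order, and the second SAKL0B05522g probe gave −0.17. In all, 47 of the 60 called genes have a name and 13 do not. The plot of the 60 called genes gives each value with its error.

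**Figure D4:**
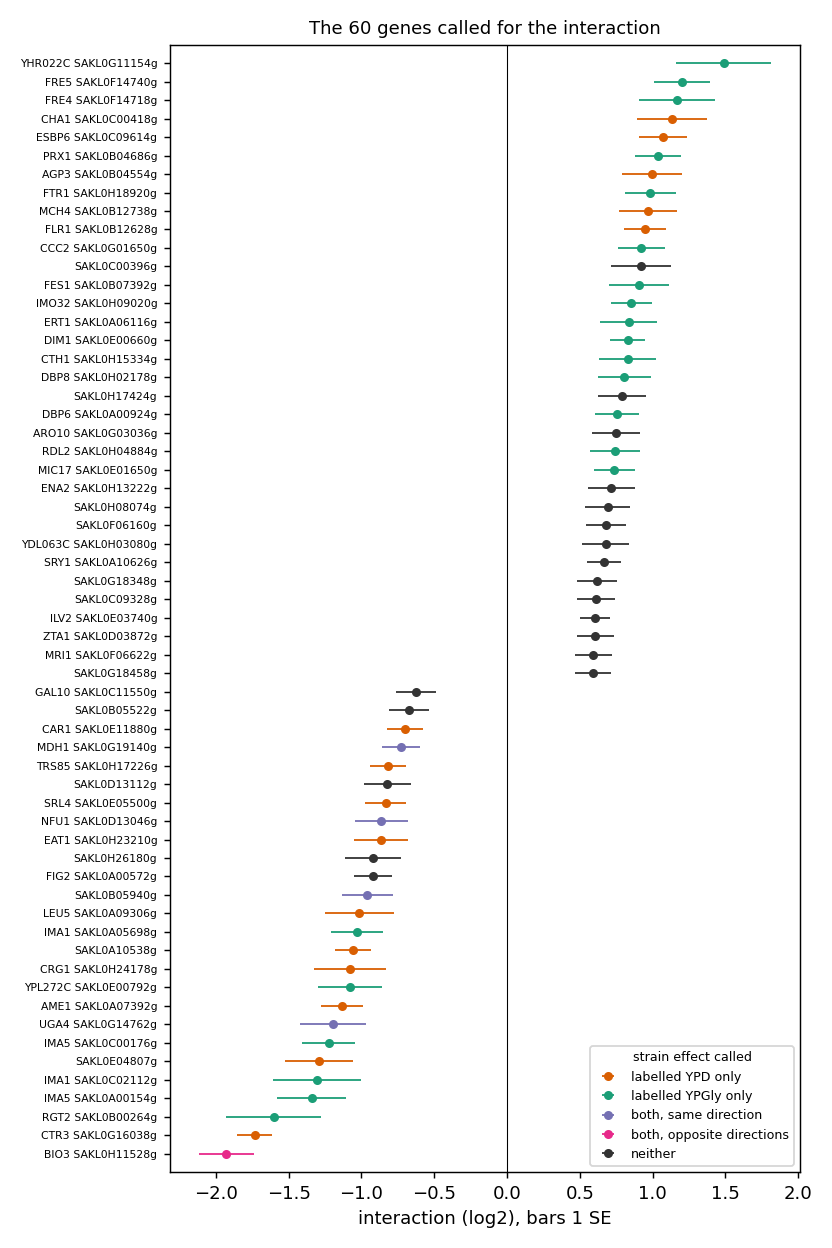
Interaction (x axis, log2) of the 60 called genes in order of size, with bars of 1 SE, coloured by the labelled media in which the strain effect was called. The values run from −1.93 for BIO3 to 1.49 for the locus named YHR022C, with 26 below and 34 above 0.

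The study assigned peaks to genes from binding measured in other samples, of which only the membership is used. Of 718 genes tested with a peak in any of its 4 groups, 17 (2.37%) were called, beside 1.14% of all genes, 7 with a positive and 10 with a negative interaction. A gene with several peaks can stand in more than 1 group. Peak media are those of the binding samples, and the signs follow the array labels, so with those exchanged positive and negative trade places in each count and each median changes sign. With a peak in YPGly only, 10 of 401 genes were called, 4 positive and 6 negative, with a median of 0.01. With a peak in both media that was higher in YPGly, 6 of 216 were called, 2 positive and 4 negative, with a median of 0.01. Peaks in both that were higher in YPD had 1 called gene of 48, MIC17, and a median of 0.06. Peaks in YPD only had 1 called gene of 112, MRI1, and a median of 0.04. The 53 genes tested at the 50 highest-ranked peaks had a median of 0.04, and MDH1 and SAKL0B05940g were called. The medians of all these groups were within 0.01 to 0.06, beside −0.02 for all genes.

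The other lists held no called gene. These were the lists for thiamine (median 0.17 over 7 genes tested), vitamin B6 (0.22 over 3), methionine and sulphur (−0.04 over 11), sterol synthesis (0.32 over 4) and heat shock (0.08 over 14).

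Called genes were spread over all 8 chromosomes, as read from the letter in the locus tag. The share called was highest on chromosome A, with 9 of 445 genes (2.02%), and lowest on D, with 3 of 578 (0.519%), and all 4 on F were positive. Only 2 pairs of called genes were next to each other in tag order, SAKL0C00396g with CHA1 and FRE4 with FRE5. In WT, 40 of the 60 called genes (66.7%) differed between labelled media past the threshold, beside 47.9% of all genes. Of the 34 with a positive interaction, 17 were lower and 2 higher in WT where labelled YPGly, and of the 26 with a negative one, 12 were lower and 9 higher, beside 20.5% lower and 27.4% higher among all genes. The WT arrays enter both the interaction and this contrast, so these counts are in part fixed by the choice of genes. Slide and labelled medium cannot be told apart in this contrast.

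The calls rest on these same arrays, so separation of the strains among called genes is in part fixed by the choice. The strains were separate where labelled YPGly for 51 of the 60 called genes and where labelled YPD for 35, beside 25.2% and 7.98% of all genes, and in both for 26, beside 3.68%. A second probe existed for 59 of the called genes and had the same sign in 59, reaching 1.5-fold in 41. Leaving out 1 array at a time kept the sign of all 60 called genes and gave 26 to 98 calls. The count fell to 26 without WT YPGly replicate 2 or without SEF1-VP16 YPGly replicate 4, and rose to 98 without WT YPD replicate 3 and to 96 without SEF1-VP16 YPD replicate 4. It was 31 without WT YPGly replicate 1 or without SEF1-VP16 YPD replicate 3, 33 without WT YPGly replicate 3 and 34 without SEF1-VP16 YPGly replicate 3. There were 14 other settings. Those with no fold threshold or with unadjusted p only loosen the call rule, so they cannot lose a call. The scanner files hold the same values up to a constant per array, so that setting is hardly a separate check. Of the 60 genes, 24 were called in all 16 fits with 1 array left out, 9 positive and 15 negative. Of these, 14 genes were also called under each of the other settings. The 14 were BIO3, CTR3, IMA5 (SAKL0A00154g), AME1, SAKL0A10538g, IMA1 (SAKL0A05698g), SAKL0B05940g, FIG2, TRS85 and MDH1 among the negative ones, and ESBP6, FTR1, CCC2 (SAKL0G01650g) and SRY1 among the positive ones. With the dimmer probe of each gene 15 positive and 25 negative interactions were called, and with median centring 48 and 23, against 34 and 26, so the split by direction depends on these choices. The plot of settings shows the counts.

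**Figure D5:**
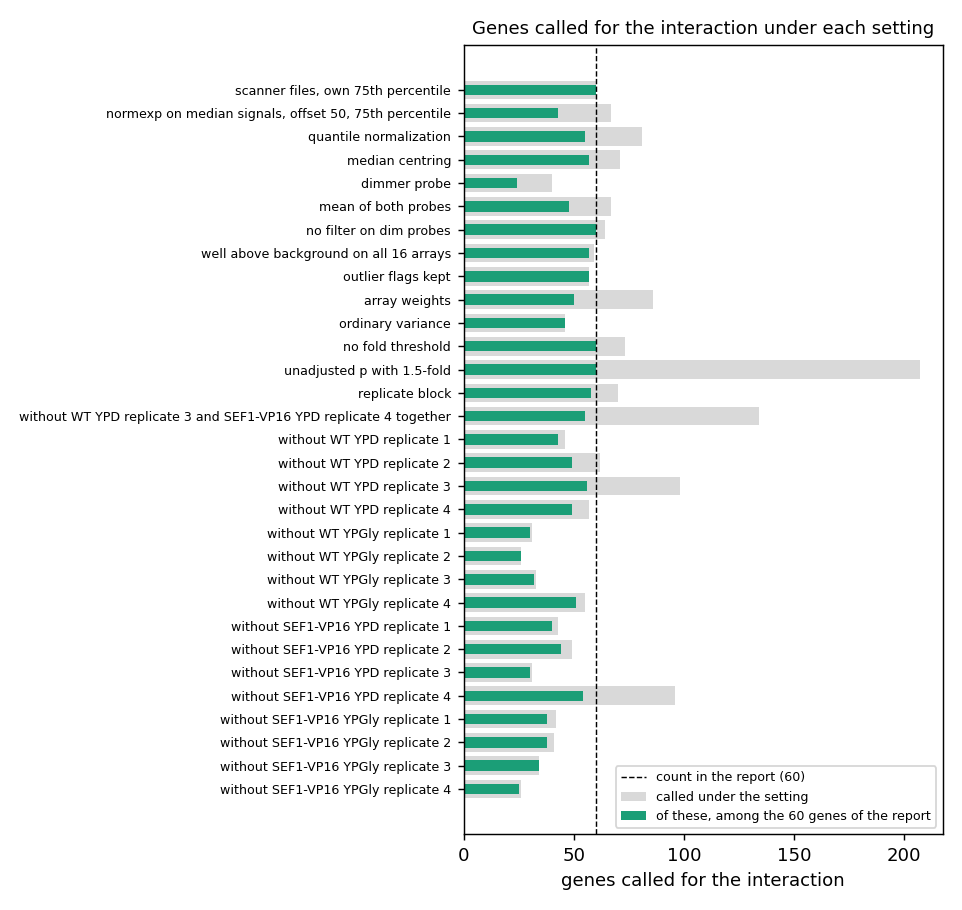
Number of genes called for the interaction (x axis) under each setting (rows), with the genes shared with the 60 of the report in green and a dashed line at 60. Counts run from 26 with an array labelled YPGly left out to 207 with unadjusted p-values.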

How the data were processed

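Transcript levels were measured in 16 cultures, 4 per strain (WT, SEF1-VP16) and labelled medium (YPD, YPGly), with 1 single-colour array per culture. The authors extracted spots with Agilent Feature Extraction 10.5.1.1 and deposited scanner files that hold an intensity per spot. They also deposited log2 values scaled to the 75th percentile of each array, which equal the log2 processed signal minus 1 constant per array to within 1.74e-06. These log2 values were used here. Of 10620 gene probes, the brighter probe of each gene by its mean over the 16 arrays was taken, outlier-flagged values were set missing (176 in the genes tested), and 5266 of 5316 genes were tested, those whose probe was well above background on every array of some group. Subtracting the background lowers the precision of dim probes, and scaling to a percentile makes all values relative.

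The interaction and its component contrasts came from 1 fit of 4 group means with limma 3.58.1 in R 4.3.3 (lmFit, contrasts.fit, eBayes; two-sided, Benjamini-Hochberg over all 5266 genes). The 4 groups shared 1 estimate of the spread per gene, although arrays labelled YPD were more variable. The SE of a strain effect may thus be too small where labelled YPD and too large where labelled YPGly. Calls required an adjusted p no higher than 0.05 and a size of at least 1.5-fold. The script was tested on simulated data with known changes. Genes were named by a rule: SEF1, the 12 called genes with the largest positive and the 12 with the largest negative interaction, every called member of a list, the extreme uncalled members of the TCA cycle and iron and copper uptake lists, and the medium markers; other called genes and the members nearest the threshold were named after their values were seen. The question, the genes and the 24 lists were chosen with earlier results of these data known, and list membership came in part from the study's own tables. Lists are described by counts and medians with no test. Alternatives covered the source of values, normexp on the median signals with an offset of 50, quantile normalization, median centring, the choice of probe, the filter on dim probes, outlier flags, array weights, the variance, the call rule, the replicate number as a block, and leaving out arrays. Ortholog names were found for 2107 of the genes tested. No genome was used here, so positions come from locus tags only.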

Additional observations from a re-analysis of the deposited data

Results flagged for a closer look

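The strain effect differed between the labelled media for 60 genes by the test of the interaction itself. In 18 of these all SEF1-VP16 arrays lay on one side of WT in one medium and on the opposite side in the other, beside 0.551% of all genes tested. The 60 were chosen on these same arrays, so this contrast is in part fixed by the choice. The 18 were BIO3 (interaction −1.93), CTR3 (−1.73), SAKL0E04807g (−1.29), CRG1 (−1.08), SAKL0A10538g (−1.06), IMA1 (SAKL0A05698g, −1.03) and FIG2 (−0.92) with negative values. Those with positive values were AGP3 (0.998), CCC2 (SAKL0G01650g, 0.92), SAKL0C00396g (0.92), DIM1 (0.83), ARO10 (0.75), SAKL0H08074g (0.69), SAKL0F06160g (0.68), SAKL0G18348g (0.62), ILV2 (0.61), ZTA1 (0.61) and SAKL0G18458g (0.59).

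Single arrays stood far from the other 3 of their group in 9 of 160 groups of values checked over 40 genes (5.62%), and chance gives about 1 in 20 such groups. AGP3 was at −3.53 on WT YPD replicate 4, with the others at −4.25 to −4.16, and at −5.12 on SEF1-VP16 YPD replicate 2, with the others at −4.69 to −4.63. On SEF1-VP16 YPD replicate 4, CHA1 was at 1.01 (others 1.46 to 1.53) and MDH1 at 3.77 (others 3.96 to 3.98). ESBP6 was at −0.84 on WT YPD replicate 3 (others −0.56 to −0.53). On arrays labelled YPGly, FRE5 was at −0.40 on SEF1-VP16 replicate 4 (others −0.80 to −0.77), CTH1 at −1.15 on SEF1-VP16 replicate 3 (others −1.43 to −1.39), CRG1 at −4.18 on SEF1-VP16 replicate 2 (others −4.02 to −4.001) and SAKL0C00396g at 2.73 on WT replicate 4 (others 2.55 to 2.57).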

How the results depend on the processing

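No called gene changed the sign of its interaction under any alternative in which it was fitted. The count of 60 lay between 40 and 86 under the alternatives other than the unadjusted p and leaving out arrays. With the dimmer probe 15 genes were positive instead of 34; 24 of the 60 were called there and all 59 that had a second probe kept their sign. Unadjusted p-values gave 207 genes, 122 positive and 85 negative. Leaving out 1 array gave 26 to 98 genes, 10 to 63 positive and 15 to 42 negative. Without WT YPD replicate 3 and SEF1-VP16 YPD replicate 4 together, a setting chosen after seeing the data, 134 genes were called, 76 positive and 58 negative, 55 of the 60 among them, and the strain effect labelled YPD was called for 193 genes instead of 111. With no fold threshold the strain effect labelled YPD was called for 282 genes and the strain effect labelled YPGly for 348. Unadjusted p-values and no fold threshold call more by their construction; the cause of the other changes was not tested. Leaving out those 2 arrays called 7 positive and 1 negative of the iron and copper uptake genes and 3 negative of the maltose and isomaltose genes. Quantile normalization turned the medians of heat shock and ribosomal protein genes to −0.09 and −0.19. With the replicate number as a block 70 genes were called, 58 of the 60 among them. Deviations of arrays with the same number correlated at −0.55 to 0.77. Their median was 0.19 across slides and 0.02 within a slide, beside −0.06 and −0.0007 for different numbers. The replicate number is also the array column, so a pairing of cultures cannot be told apart from array position. Dim levels limit RGT2, YPL272C, CRG1 and AGP3.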
